A study of Homo sapiens with 18 samples.

Results

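The 10 genes described here, which mark epithelial cells, mesenchymal cells or the passage between them, were followed across the differentiation of human stem cells into insulin-producing cells. They were taken by name, with earlier results of these data known, and are 10 of the 57808 genes in the deposited count table. CDH1 and EPCAM are epithelial surface proteins, CDH2 and VIM are markers often set against them, SNAI1, SNAI2 and ZEB2 are transcription factors of the transition, ACTA2 and TAGLN are smooth muscle proteins, and PDGFRA is a receptor of mesenchymal cells. All 10 had counts in RNA at every stage.

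In an epithelial-mesenchymal transition, cells that adhere side by side through E-cadherin lose that contact, change their cadherins and filaments, and become motile. Transcription factors of the SNAIL and ZEB families bind E-box motifs and repress the E-cadherin gene, while TGF-beta ligands and serum response factor (SRF) with its partners drive matrix and contractile genes. Definitive endoderm, the germ layer of gut and pancreas, forms in the embryo by ingression through the primitive streak, a classical example of such a transition, and pancreatic epithelium forms from it later.

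The cells were MEL1, an established human embryonic stem cell line with GFP under the insulin promoter, so that GFP marks cells in which the insulin promoter is active. The groups were pluripotent stem cells (hPSC) and definitive endoderm (DE), both with the genotype RPL22-FLAG, and stem-cell-derived beta-like cells (sBC) from stirred suspension culture, sorted into GFP+ and GFP- cells. RNA-seq was done on 2 libraries for each stage and each sBC fraction, and the sBC of the RNA libraries carry no RPL22-FLAG in their labels. Ribosome footprints, the mRNA pieces that ribosomes protect from nuclease, were sequenced in total from hPSC and DE, and after pull-down of tagged ribosomes with a FLAG antibody from hPSC, DE and GFP+ sBC, with 2 libraries each. The GFP+ sBC used for footprints received RPL22-FLAG by lentivirus, so tag delivery and stage cannot be told apart between them and the earlier stages. The labels do not state that the 2 libraries of a group are separate cultures, so every p-value measures only the spread between these libraries, which may be technical.

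Depth ran from 27359178 to 92533993 counts per RNA library and from 6606248 to 30167927 counts per footprint library. Levels are given as CPM, counts divided by the TMM-scaled library size of each assay, and they depend on transcript length, so no level is compared between genes. The stages carried their markers in RNA: POU5F1 had 1835 and 1868 CPM in hPSC, SOX17 had 469 and 471 CPM in DE, and INS had 4396 and 4826 CPM in GFP+ sBC against 1701 and 980 CPM in GFP- sBC. The GFP- fraction held endocrine RNA too: none of the 6 beta-like markers passed in the sort, and the endocrine granule protein CHGA had 14730 and 18280 CPM in GFP+ sBC against 22390 and 13420 CPM in GFP- sBC. The 2 GFP- sBC RNA libraries stood apart from each other. Mitochondrial genes took 0.42% of counts in replicate 1 and 4.35% in replicate 2, and the 9 mesenchyme markers (COL1A1, COL1A2, COL3A1, LUM, DCN, POSTN, PDGFRB, THY1 and TCF21) summed to 162 CPM in replicate 1 and 24.0 CPM in replicate 2, with all 9 detected in both.

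The GFP+ sBC footprint libraries went against their label for several of the lists followed. Their sums lay nearer to those of GFP- RNA than of GFP+ RNA, although footprint and RNA levels were scaled separately. The 15 epithelial junction and keratin genes summed to 4970 and 5190 CPM. In RNA these had 2530 and 2470 CPM in GFP+ and 5430 and 3500 CPM in GFP- sBC. For this list, however, FLAG footprints lay above RNA at the earlier stages too. In hPSC they had 2180 and 2810 CPM against 1450 and 1460 CPM in RNA. In DE they had 17800 and 8760 CPM against 5590 and 4840 CPM in RNA. Its gap from GFP+ RNA is therefore not particular to the GFP+ sBC footprint libraries. The 9 cytoskeletal and SRF genes had 2090 and 2080 CPM, against 936 and 1020 CPM (GFP+ RNA) and 3500 and 1570 CPM (GFP- RNA). Other lists stayed nearer to GFP+ RNA, such as 7 epithelial regulators, at 211 and 176 CPM. These had 204 and 148 CPM in GFP+ and 365 and 218 CPM in GFP- RNA. The 4 duct and progenitor markers SOX9, KRT19, CFTR and SPP1 summed to 974 and 1110 CPM in GFP+ sBC footprints, whereas in RNA they summed to 183 and 299 CPM in GFP+ sBC and to 1410 and 1320 CPM in GFP- sBC. The 3 acinar markers PRSS1, CPA1 and CELA3A summed to 30.4 and 39.0 CPM in GFP+ sBC footprints, and in RNA to 6.91 and 10 CPM in GFP+ sBC and 27.8 and 26.9 CPM in GFP- sBC. The 22 mesenchyme and smooth muscle genes summed to 1630 and 1870 CPM in those footprints, and in RNA to 547 and 437 CPM in GFP+ sBC and 2520 and 2240 CPM in GFP- sBC. For CFTR, a chloride channel of duct cells, the GFP+ sBC footprints held 254 and 391 CPM. In RNA it had 8.54 and 8.79 CPM in GFP+ sBC and 399 and 829 CPM in GFP- sBC. Changes of GFP+ footprints relative to GFP+ RNA are therefore also given with GFP- RNA in its place, a setting chosen after the data were seen.

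**Figure D1:**
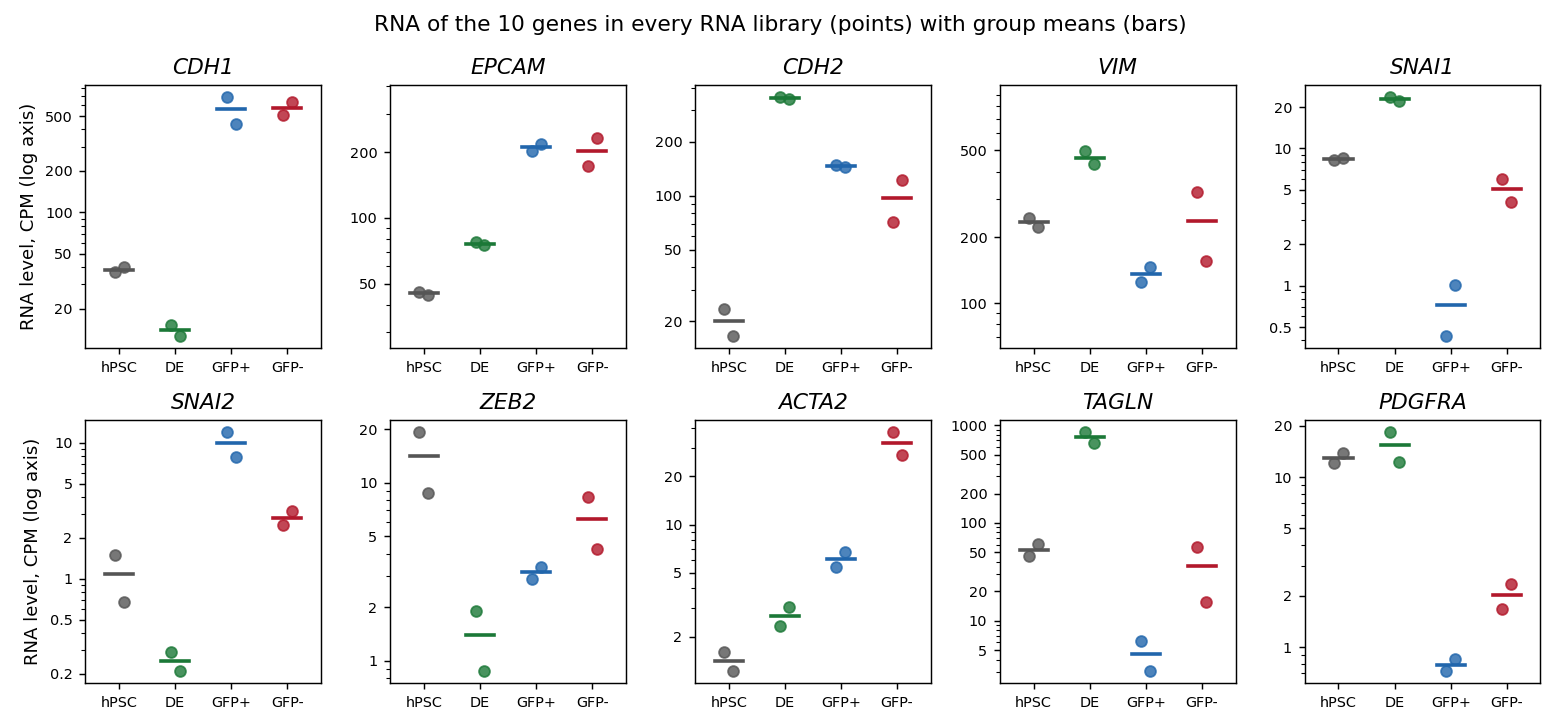
RNA levels of the 10 genes in CPM on a log axis, 1 point per library and 1 bar per group mean, for hPSC, DE, GFP+ sBC and GFP- sBC. CDH1 and EPCAM are highest in both sBC fractions, CDH2, VIM, SNAI1 and TAGLN are highest in DE, and ACTA2 is highest in GFP- sBC at 38.0 and 27.1 CPM.

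CDH1 encodes E-cadherin, the adhesion protein of epithelial junctions (ENSG00000039068.18, chromosome 16, 68737292 to 68835537, gene spans here being those of RefSeq on GRCh38.p14). Its RNA was lowest in DE and far higher in both sBC fractions than in hPSC. The hPSC libraries had 36.9 and 39.8 CPM and the DE libraries 15.3 and 12.7 CPM. The GFP+ sBC libraries had 688 and 435 CPM and the GFP- sBC libraries 513 and 633 CPM. The ranges of hPSC, DE and sBC did not overlap, while the ranges of the 2 sBC fractions did. CDH1 RNA fell by 1.40 ± 0.09 on the log2 scale in DE relative to hPSC (SE, edgeR quasi-likelihood test, adjusted p = 3.28e-07). It rose in GFP+ sBC relative to hPSC by a log2 fold change of 3.87 ± 0.28 (edgeR adjusted p = 3.08e-05) and in GFP- sBC by 3.90 ± 0.28 (edgeR adjusted p = 3.76e-05). In bulk libraries, a change in the share of cells that express a gene and a change in RNA per cell cannot be told apart.

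EPCAM, an epithelial cell adhesion molecule that also marks pluripotent cells (ENSG00000119888.10, chromosome 2, 47369311 to 47387020), climbed at each step. Its RNA stood at 45.8 and 44.4 CPM in hPSC, 77.3 and 75.1 CPM in DE, 202 and 218 CPM in GFP+ sBC and 173 and 231 CPM in GFP- sBC. The hPSC, DE and sBC ranges were separate, and the GFP- range enclosed the GFP+ range. EPCAM thus rose in DE, where CDH1 fell, by a log2 fold change of 0.81 ± 0.05 over hPSC (edgeR adjusted p = 1.28e-07). Over hPSC, it rose by 2.22 ± 0.20 in GFP+ sBC (edgeR adjusted p = 7.3e-05) and by 2.16 ± 0.20 in GFP- sBC (edgeR adjusted p = 9.42e-05).

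CDH2 encodes N-cadherin, the cadherin of neural and mesenchymal cells and also of early endoderm and islets (ENSG00000170558.8, chromosome 18, 27932879 to 28177130). Its order differed from that of CDH1, with DE at the top. The hPSC libraries held 23.4 and 16.5 CPM of CDH2 RNA, and the DE libraries 355 and 345 CPM. In the sBC it stood at 149 and 145 CPM in GFP+ cells and at 71.7 and 123 CPM in GFP- cells. No 2 of the 4 groups overlapped. CDH2 rose in DE over hPSC by a log2 fold change of 4.19 ± 0.21 (edgeR adjusted p = 0.000511). It was still 2.88 ± 0.30 above hPSC on the log2 scale in GFP+ sBC (edgeR adjusted p = 0.000165) and 2.29 ± 0.30 above it in GFP- sBC (edgeR adjusted p = 0.000495).

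The quotient of CDH1 to CDH2 counts within a library needs no scaling between libraries, and although its absolute value depends on transcript length, it can be compared between libraries. On the log2 scale it was 0.66 and 1.27 in hPSC RNA, -4.54 and -4.77 in DE RNA, 2.21 and 1.58 in GFP+ sBC RNA and 2.84 and 2.36 in GFP- sBC RNA. The DE libraries lay below those of every other stage. The FLAG footprints gave 0.75 and 1.67 in hPSC, -4.36 and -4.99 in DE and 2.49 and 2.08 in GFP+ sBC. Total footprints gave -4.79 and -4.26 in DE against 1.35 and 1.71 in hPSC.

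**Figure D2:**
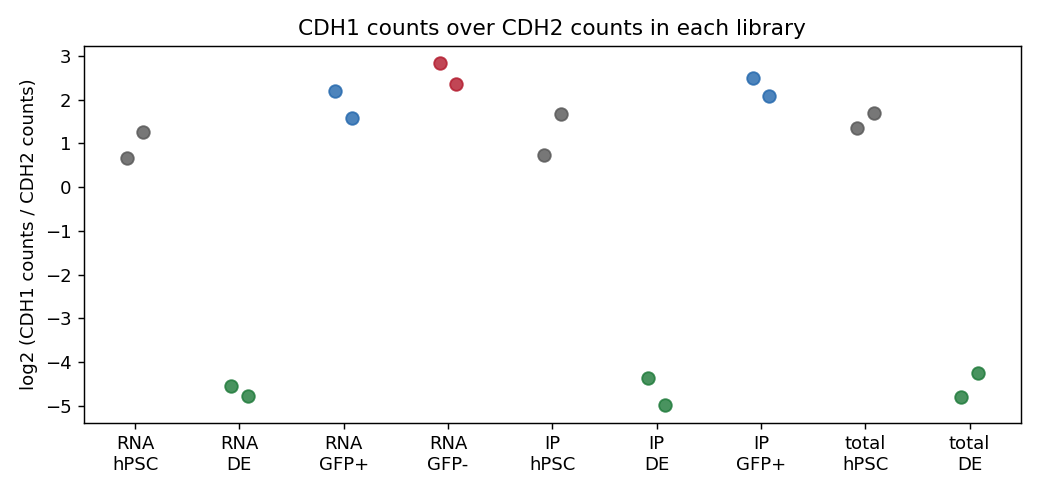
Log2 of CDH1 counts over CDH2 counts in each of the 18 libraries, by assay (RNA, FLAG pull-down as IP, total footprints) and stage. The 6 DE libraries lie between -4.99 and -4.26, and all others lie above 0.6.

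VIM encodes vimentin, the intermediate filament of mesenchymal cells (ENSG00000026025.15, chromosome 10, 17228241 to 17237593). Its RNA changed over a narrower range than that of either cadherin. The hPSC libraries had 246 and 224 CPM, the DE libraries 497 and 432 CPM, the GFP+ sBC libraries 125 and 147 CPM, and the GFP- sBC libraries 321 and 157 CPM. DE was the highest group without overlap, GFP+ sBC the lowest, and the GFP- pair spanned the hPSC values. VIM rose in DE over hPSC by a log2 fold change of 1.03 ± 0.08 (edgeR adjusted p = 7.07e-06), a call that was lost in a fit of all 8 RNA libraries (edgeR adjusted p = 0.0554). Against hPSC, the log2 difference was -0.79 ± 0.32 in GFP+ sBC (edgeR adjusted p = 0.0629) and 0.03 ± 0.32 in GFP- sBC (edgeR adjusted p = 0.951), so neither passed. The GFP+ difference did pass with DESeq2 (adjusted p = 0.0489), when only the 4 libraries compared were fitted (edgeR adjusted p = 0.00212) and without either GFP- library (edgeR adjusted p = 0.00087 and 0.000951), at -0.69 to -0.74. The GFP- value turned on 1 library: it was -0.49 without GFP- replicate 1 (edgeR adjusted p = 0.017) and 0.47 without GFP- replicate 2 (edgeR adjusted p = 0.0175).

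The SNAIL and ZEB factors did not move as one group. SNAI1, a zinc finger repressor of E-cadherin that acts in gastrulation (ENSG00000124216.3, chromosome 20, 49982980 to 49988886), peaked in DE. It had 8.20 and 8.54 CPM in hPSC, 23.7 and 22.2 CPM in DE, 0.430 and 1.01 CPM in GFP+ sBC and 6.03 and 4.09 CPM in GFP- sBC. No groups overlapped, and the GFP+ values rest on 15 and 38 counts. SNAI1 rose in DE over hPSC by a log2 fold change of 1.51 ± 0.08 (edgeR adjusted p = 2.24e-08). In GFP+ sBC it fell by 3.52 ± 0.41 on the log2 scale relative to hPSC (edgeR adjusted p = 0.000261). In GFP- sBC the log2 difference from hPSC of -0.72 ± 0.36 did not pass (edgeR adjusted p = 0.114), but did without GFP- replicate 1 (edgeR adjusted p = 0.0236).

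SNAI2, a close relative of SNAI1 best known from neural crest cells and basal epithelia (ENSG00000019549.9, chromosome 8), ran the opposite course. Its RNA stood at 1.49 and 0.677 CPM in hPSC, 0.288 and 0.209 CPM in DE, 12.1 and 7.91 CPM in GFP+ sBC and 2.46 and 3.17 CPM in GFP- sBC. No groups overlapped, GFP+ sBC were highest, and the DE values rest on 22 and 16 counts. In DE, SNAI2 fell by 2.06 ± 0.44 on the log2 scale relative to hPSC (edgeR adjusted p = 0.00301). It rose in GFP+ sBC over hPSC by a log2 fold change of 3.21 ± 0.46 (edgeR adjusted p = 0.000715). In GFP- sBC it rose over hPSC by 1.38 ± 0.44 (edgeR adjusted p = 0.0281), a call lost when either DE library, GFP- replicate 2 or hPSC replicate 2 was left out (edgeR adjusted p from 0.05 to 0.169) and when only the 4 libraries compared were fitted (edgeR adjusted p = 0.0719).

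ZEB2, a zinc finger and homeodomain repressor of E-cadherin (ENSG00000169554.18, chromosome 2, 144384081 to 144520119), was highest in undifferentiated cells, where the 2 libraries also differed most. Its RNA was 19.4 and 8.73 CPM in hPSC, 1.90 and 0.877 CPM in DE, 2.90 and 3.38 CPM in GFP+ sBC and 8.37 and 4.23 CPM in GFP- sBC. The DE and GFP+ sBC ranges lay apart from each other and below those of hPSC and GFP- sBC, whose ranges lay close, with 8.73 CPM as the lower hPSC value and 8.37 CPM as the higher GFP- value. In DE, ZEB2 fell by 3.29 ± 0.76 on the log2 scale relative to hPSC (edgeR adjusted p = 0.047), which no longer passed without DE replicate 1 (edgeR adjusted p = 0.0591), without DE replicate 2 (edgeR adjusted p = 0.0859) or with no filter on low counts (edgeR adjusted p = 0.0832). In GFP+ sBC it fell by 2.16 ± 0.55 relative to hPSC (edgeR adjusted p = 0.0108), a call lost without GFP+ replicate 1, GFP+ replicate 2 or hPSC replicate 1 (edgeR adjusted p = 0.0858, 0.0651 and 0.0791). The related factor ZEB1 also had its lowest RNA level in DE, at 2.26 and 1.78 CPM against 8.24 and 3.98 CPM in hPSC (log2 difference -1.54 ± 0.47, edgeR adjusted p = 0.0514). Unlike ZEB2, ZEB1 rose in GFP+ sBC over hPSC, with a log2 fold change of 1.23 ± 0.36 (edgeR adjusted p = 0.0193).

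ZEB1 and ZEB2 mRNAs are textbook targets of the miR-200 family, which binds through the seed at bases 2 to 8 and falls into a pair of seed groups. The mature sequences from RefSeq (GRCh38.p14) are shown with the seed in capitals, since the seed defines the groups: the first 3 share one seed and the last 2 the other.
miR-200b-3p: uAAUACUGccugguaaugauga
miR-200c-3p: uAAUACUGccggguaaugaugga
miR-429: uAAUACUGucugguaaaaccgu
miR-200a-3p: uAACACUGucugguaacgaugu
miR-141-3p: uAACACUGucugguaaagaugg
Mature miRNAs were not measured here, but MIR200CHG, the host transcript of miR-200c and miR-141 on chromosome 12, had RNA counts and was picked after its values were seen. It had 0.338 and 0.450 CPM in hPSC, 2.35 and 2.55 CPM in DE, 2.06 and 1.23 CPM in GFP+ sBC and 1.31 and 1.59 CPM in GFP- sBC. The hPSC libraries, with 23 and 32 counts, were below all others. MIR200CHG rose over hPSC in DE by a log2 fold change of 2.68 ± 0.21 (edgeR adjusted p = 7.78e-07) and in GFP+ sBC by 2.05 ± 0.38 (edgeR adjusted p = 0.00259).

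ACTA2 encodes smooth muscle alpha-actin, a filament of smooth muscle, myofibroblasts and stellate cells (ENSG00000107796.13, chromosome 10, minus strand, 88935074 to 88991337). Its smooth muscle promoter carries CArG boxes, the sites that SRF binds, and RefSeq lists a second start farther upstream that gene-level counts cannot separate from it. The 250 bases before the downstream start, chr10:88952774-88953023 on the minus strand of GRCh38.p14, are shown with the 2 matches to a CArG box with at most 1 G or C in its A/T core in capitals.
ACTA2 upstream: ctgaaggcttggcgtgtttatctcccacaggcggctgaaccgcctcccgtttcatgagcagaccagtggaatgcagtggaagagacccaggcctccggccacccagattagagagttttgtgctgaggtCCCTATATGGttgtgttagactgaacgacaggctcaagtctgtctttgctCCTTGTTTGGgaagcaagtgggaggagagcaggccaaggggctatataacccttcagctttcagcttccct
The matches begin 121 and 71 bases before the start of transcription. Of 35116 RefSeq upstream windows of the same length, 7.0% held at least 1 such match and 0.59% held 2 or more. The pattern searched for is the same on both strands, though the 2 matches themselves are not. The E-boxes CAGGTG and CACCTG, the 2 strands of a single motif, are in 17.5% of the windows and in none of the 8 windows found for 5 of the genes (ZEB2, PDGFRA, VIM, ACTA2 and CDH2), and among those 8 only the ACTA2 window shown held the CArG match.

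ACTA2 RNA was low in the early stages and highest in the GFP- sBC. It stood at 1.61 and 1.22 CPM in hPSC and at 2.32 and 3.06 CPM in DE. The sBC had 5.48 and 6.72 CPM in the GFP+ fraction and 38.0 and 27.1 CPM in the GFP- fraction. All 4 groups were separate. ACTA2 rose in GFP- sBC over hPSC by a log2 fold change of 4.52 ± 0.32 (edgeR adjusted p = 3.66e-05) and in GFP+ sBC by 2.11 ± 0.30 (edgeR adjusted p = 0.000692). The smaller rise in DE of 0.98 ± 0.20 (edgeR adjusted p = 0.00122) was lost in a fit of all 8 RNA libraries (edgeR adjusted p = 0.0503).

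TAGLN encodes transgelin, an actin-binding protein of smooth muscle and an SRF target (ENSG00000149591.16, chromosome 11, 117199294 to 117207465). Its RNA moved unlike that of ACTA2, with a high peak in DE. The hPSC libraries had 45.7 and 60.8 CPM, the DE libraries 859 and 651 CPM, the GFP+ sBC libraries 6.15 and 3.07 CPM, and the GFP- sBC libraries 57.2 and 15.6 CPM. DE was highest and GFP+ sBC lowest, without overlap, whereas the GFP- sBC values spanned those of hPSC. TAGLN rose in DE over hPSC by a log2 fold change of 3.88 ± 0.27 (edgeR adjusted p = 0.00242) and fell by 3.53 ± 0.63 in GFP+ sBC (edgeR adjusted p = 0.00221). Between GFP- sBC and hPSC the log2 difference was -0.55 ± 0.57 (edgeR adjusted p = 0.429), but without GFP- replicate 1 it was -1.67 (edgeR adjusted p = 0.00376). MYOCD, the SRF partner that drives smooth muscle genes, had 29.0 and 25.8 CPM in DE against 1.32 and 1.49 CPM in hPSC (log2 fold change 4.33 ± 0.11, edgeR adjusted p = 1.05e-10). In GFP+ sBC its RNA was at 1 and 0 counts. SRF itself had 141 and 138 CPM in DE against 109 and 113 CPM in hPSC (0.38 ± 0.04 on the log2 scale, edgeR adjusted p = 1.91e-05).

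PDGFRA, a receptor for platelet-derived growth factor found on mesenchymal and primitive endoderm cells (ENSG00000134853.11, chromosome 4, 54229293 to 54298245), was the member whose RNA did not pass between DE and hPSC. Its level was 12.1 and 13.8 CPM in hPSC, 18.5 and 12.2 CPM in DE, 0.724 and 0.852 CPM in GFP+ sBC and 1.68 and 2.35 CPM in GFP- sBC. The DE and hPSC ranges overlapped, and both lay above both sBC fractions. The log2 difference of DE from hPSC was 0.30 ± 0.23 (edgeR adjusted p = 0.296), and it was 0.57 without DE replicate 2 (edgeR adjusted p = 0.00291). Relative to hPSC, PDGFRA fell by 4.04 ± 0.34 in GFP+ sBC (edgeR adjusted p = 5.89e-05) and fell by 2.69 ± 0.31 in GFP- sBC (edgeR adjusted p = 0.000302).

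Counted together, 9 of the 10 genes passed in RNA between DE and hPSC, 6 of them higher in DE and 3 lower. Over all 20634 genes tested, 75.6% passed, 38.7% higher and 36.8% lower, so this count is not far from the background. Between GFP+ sBC and hPSC 5 were higher and 4 lower in GFP+ sBC, beside a background of 61.3% (30.4% higher and 30.9% lower). Between GFP- sBC and hPSC 5 were higher and 1 lower in GFP- sBC, beside a background of 59.5% (31.2% higher and 28.3% lower). Several of these values turned on a single GFP- library, as given above for VIM, SNAI1, SNAI2 and TAGLN. Both sBC contrasts share the hPSC libraries. The median log2 fold change over the members and over all genes tested was 0.89 and 0.01 for DE over hPSC, 0.66 and 0.04 for GFP+ sBC over hPSC, and 0.70 and 0.17 for GFP- sBC over hPSC.

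**Figure D3:**
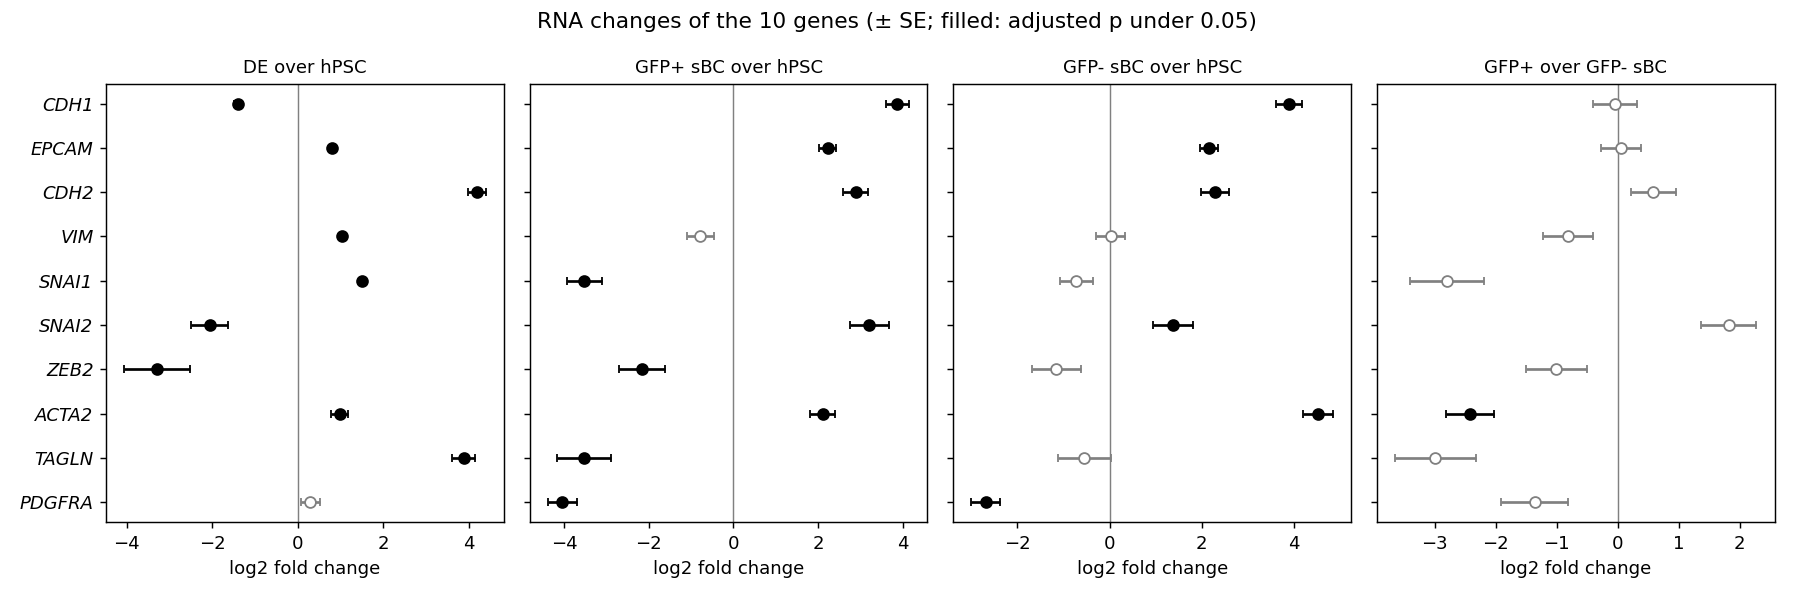
RNA log2 fold changes of the 10 genes with standard errors, for DE over hPSC, GFP+ sBC over hPSC, GFP- sBC over hPSC and GFP+ over GFP- sBC. Filled points have an adjusted p under 0.05, and ACTA2 is the only filled point in the sort.

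From DE to the GFP+ sBC, 4 members rose and 5 fell in GFP+ sBC, beside 60.7% of all genes tested (29.9% higher and 30.9% lower). The changes of largest size were those of TAGLN, which fell by 7.36 ± 0.75 on the log2 scale (edgeR adjusted p = 0.000159), and of CDH1, which rose by 5.33 ± 0.30 (edgeR adjusted p = 1.37e-05). SNAI1 fell by 4.98 ± 0.43 (edgeR adjusted p = 7.39e-05) and SNAI2 rose by 5.32 ± 0.52 (edgeR adjusted p = 0.000128). PDGFRA fell by 4.29 ± 0.34 and VIM fell by 1.77 ± 0.33 (edgeR adjusted p = 5.45e-05 and 0.00262). EPCAM rose by 1.46 ± 0.20 (edgeR adjusted p = 0.000531). CDH2 fell by 1.25 ± 0.29 (edgeR adjusted p = 0.00726), a call lost without either GFP+ library (edgeR adjusted p = 0.0647 and 0.0662). ACTA2 rose by 1.18 ± 0.29 (edgeR adjusted p = 0.00942), which did not pass without DE replicate 1 (edgeR adjusted p = 0.0849) or GFP+ replicate 2 (edgeR adjusted p = 0.0511). For ZEB2 the log2 difference of 1.18 ± 0.55 did not pass (edgeR adjusted p = 0.0967), but did with DESeq2 (adjusted p = 0.036) and when only the 4 libraries compared were fitted (edgeR adjusted p = 0.0279).

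The GFP sort asks how insulin-expressing cells differ from the remaining cells of the same differentiation. ACTA2 was the single member that passed, lower in GFP+ than in GFP- sBC by a log2 fold change of -2.42 ± 0.39 (edgeR adjusted p = 0.0235), where 2.43% of 19797 genes tested passed, 0.0808% as higher in GFP+ sBC and 2.35% as lower. The call was lost without GFP+ replicate 1 (edgeR adjusted p = 0.23) and without GFP+ replicate 2 (edgeR adjusted p = 0.146). TAGLN, SNAI1 and SNAI2 had wide gaps with larger errors: TAGLN differed by -2.99 ± 0.66 (edgeR adjusted p = 0.0666), SNAI1 by -2.80 ± 0.61 (edgeR adjusted p = 0.0623) and SNAI2 by 1.82 ± 0.46 (edgeR adjusted p = 0.0982). With DESeq2, where 1263 of 19797 genes passed, 4 members passed, these 3 and ACTA2. The same 4 passed with a replicate block, where 1258 of 19797 genes passed. Same-numbered sort fractions shared little deviation (correlation 0.092), which with 2 libraries per group cannot exclude that they are paired. For the epithelial proteins the log2 differences were near 0, at -0.04 ± 0.36 for CDH1 (edgeR adjusted p = 0.973) and 0.05 ± 0.33 for EPCAM (edgeR adjusted p = 0.96), and the sign of both changes when single libraries are left out. CDH2 differed by 0.59 ± 0.37, VIM by -0.82 ± 0.41, ZEB2 by -1.01 ± 0.50 and PDGFRA by -1.36 ± 0.55, all short of the threshold (edgeR adjusted p = 0.619, 0.502, 0.503 and 0.365). With 1 library left out, the log2 differences ran from -3.63 to -1.80 for TAGLN and from -1.23 to -0.235 for VIM. Both were largest in size without GFP- replicate 2, which has the lower VIM, TAGLN and mesenchyme marker levels of the pair.

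Of the 9 mesenchyme markers 6 were tested in the sort, where 2.35% of all genes tested were lower in GFP+ sBC. Of these 6 markers, 1 was lower in GFP+ sBC while 5 did not pass. Their sum was 9.06 and 9.83 CPM in GFP+ sBC, where TCF21 was at 0, against 162 and 24.0 CPM in GFP- sBC. The fibrillar collagen COL3A1 had 0.487 and 0.639 CPM in GFP+ sBC against 21.6 and 0.675 CPM in GFP- sBC, so that GFP- replicate 2 was close to the GFP+ libraries. Of the 4 duct and progenitor markers 3 were lower in GFP+ sBC, and the median log2 fold change of the 4 was -4.86. The part of these cell types in the values of the members and of the lists below was not tested. In GFP- replicate 2, where COL3A1 was low, ACTA2 still had 27.1 CPM, while TAGLN had 15.6 CPM.

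Genes of the same pathways, taken from lists chosen with earlier results of these data known, were read beside the members. In the sort, 2.35% of all genes tested passed as lower in GFP+ sBC and 0.0808% as higher. Calls in that comparison therefore lie almost all in 1 direction, whatever the list. Of 22 mesenchyme and smooth muscle genes 15 were tested in the sort, and 6 were lower in GFP+ sBC, among them the matrix protein SPARC (log2 fold change -4.67 ± 0.54, edgeR adjusted p = 0.00744), the myosin light chain MYL9 (-2.81 ± 0.57, edgeR adjusted p = 0.0493) and the cadherin CDH11 (-2.69 ± 0.41, edgeR adjusted p = 0.0184). Of 15 epithelial junction and keratin genes, 3 were lower in GFP+ sBC and none higher, and these were the claudin CLDN6 (-3.98 ± 0.38, edgeR adjusted p = 0.00392) and the keratins KRT18 (-3.32 ± 0.49, edgeR adjusted p = 0.0184) and KRT8 (-2.58 ± 0.43, edgeR adjusted p = 0.026). Of 7 epithelial regulators 2 were lower, GRHL2 (-3.44 ± 0.52, edgeR adjusted p = 0.0191) and OVOL1 (-3.02 ± 0.53, edgeR adjusted p = 0.0305), both transcription factors that hold the epithelial state. Of 8 further transition factors, 5 were tested and none passed. Of 9 genes of the TGF-beta list 2 were lower, CCN1 (-4.86 ± 0.97, edgeR adjusted p = 0.0474) and CCN2 (-4.23 ± 0.78, edgeR adjusted p = 0.0363), both matricellular proteins.

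In DE relative to hPSC, where 38.7% of all genes tested rose and 36.8% fell, 12 of the 15 junction and keratin genes rose and 2 fell, while CDH1 fell. KRT19 rose by a log2 fold change of 3.15 ± 0.07 (edgeR adjusted p = 2.5e-10), KRT8 by 2.75 ± 0.08 (edgeR adjusted p = 3.74e-08) and desmoplakin DSP by 2.34 ± 0.06 (edgeR adjusted p = 1.78e-10). The epithelial regulators split, with 3 higher and 4 lower, OVOL1 at 2.58 ± 0.13 and GRHL2 at -2.03 ± 0.10 (edgeR adjusted p = 3.54e-06 and 1.32e-07). Of the 8 cytoskeletal and SRF genes that passed, all rose, out of 9 tested. The mesenchyme and smooth muscle list was mixed, with 9 higher and 7 lower of 18 tested: fibronectin FN1 rose by 4.14 ± 0.12 (edgeR adjusted p = 9.51e-07) and MYL9 by 3.46 ± 0.08 (edgeR adjusted p = 1.42e-09), and the surface protein THY1 fell by 4.38 ± 0.08 (edgeR adjusted p = 2.78e-11). Of the transition factors 2 rose and 4 fell of 7 tested, with TCF4 at -1.65 ± 0.07 (edgeR adjusted p = 3.5e-08) and TWIST1 higher by 0.93 ± 0.29 (edgeR adjusted p = 0.0125) at 40 and 41 counts in DE against 20 and 20 counts in hPSC. Of the TGF-beta list 3 rose and 3 fell, with the ligand TGFB1 higher by 2.34 ± 0.07 (edgeR adjusted p = 3.81e-10).

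In GFP+ sBC relative to hPSC, where 30.9% of all genes tested fell, 14 mesenchyme and smooth muscle genes fell and 1 rose of 21 tested, and the one that rose was FN1 (log2 fold change 3.32 ± 0.21, edgeR adjusted p = 1.79e-05). The smooth muscle protein calponin, CNN1, fell by 7.25 ± 0.48 (edgeR adjusted p = 2.07e-05). In GFP- sBC relative to hPSC, 6 rose and 3 fell, with FN1 at 5.56 ± 0.23 (edgeR adjusted p = 8.25e-06) and COL3A1 at 7.72 ± 1.80 (edgeR adjusted p = 0.00789), the last resting on 937 counts in 1 library and 23 in the other. Junction and keratin genes rose in both fractions, 9 of 15 in GFP+ and 11 of 15 in GFP-, with 4 and 1 lower, where 30.4% and 31.2% of all genes tested rose. CLDN3 rose by 4.20 ± 0.36 in GFP+ sBC and by 4.83 ± 0.37 in GFP- sBC (edgeR adjusted p = 6.03e-05 and 4.5e-05). The splicing regulator ESRP1 fell in both, with log2 fold changes of -2.09 ± 0.25 in GFP+ and -2.25 ± 0.25 in GFP- (edgeR adjusted p = 0.000276 and 0.000227). Of the TGF-beta list 3 rose and 1 fell in GFP+ sBC and 7 rose in GFP- sBC, with TGFB2 higher by 3.76 ± 0.51 in GFP+ and 4.76 ± 0.53 in GFP- (edgeR adjusted p = 0.000553 and 0.000238).

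Footprints ask whether the same differences appear on ribosomes. In total footprints 7 of 9 tested members passed between DE and hPSC, 5 higher in DE and 2 lower, beside 34.1% of 15454 genes tested (17.2% higher and 16.9% lower). CDH2 had 98.2 and 111 CPM in DE against 6.60 and 3.99 CPM in hPSC (log2 fold change 4.31 ± 0.30, edgeR adjusted p = 0.00153). TAGLN had 369 and 360 CPM in DE against 30.8 and 35.6 CPM in hPSC (3.45 ± 0.18, edgeR adjusted p = 0.000848). CDH1 had 3.56 and 5.79 CPM in DE against 16.8 and 13.0 CPM in hPSC (-1.66 ± 0.30, edgeR adjusted p = 0.0137). In these 3 genes, as in RNA, DE and hPSC did not overlap. EPCAM, VIM and SNAI1 were higher in DE by 0.81 ± 0.15, 0.66 ± 0.17 and 1.84 ± 0.33 (edgeR adjusted p = 0.0153, 0.038 and 0.0138) and ZEB2 fell by 3.30 ± 0.56 (edgeR adjusted p = 0.0118). ACTA2 (1.52 ± 0.51, edgeR adjusted p = 0.0711) and PDGFRA (0.08 ± 0.35, edgeR adjusted p = 0.871) did not pass, though ACTA2 did with no filter (edgeR adjusted p = 0.0178), with protein-coding genes alone (edgeR adjusted p = 0.019) and without DE replicate 1 (edgeR adjusted p = 0.0327). Without hPSC replicate 1 only 2 members passed, and without hPSC replicate 2 none did. In DE replicate 1, 40.5% of counts lay in protein-coding genes against 76.0% in replicate 2.

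In FLAG footprints 5 of 9 tested members passed between DE and hPSC, 3 higher in DE and 2 lower, beside 22.3% of 16018 genes tested (9.78% higher and 12.5% lower). CDH2 footprints were at 9.76 and 4.77 CPM in hPSC, 84.5 and 117 CPM in DE and 192 and 244 CPM in GFP+ sBC, so that the top stage was GFP+ sBC and not DE as in RNA. CDH2 rose in DE over hPSC by a log2 fold change of 3.79 ± 0.40 (edgeR adjusted p = 0.00159). TAGLN was at 55.8 and 78.7 CPM in hPSC, 878 and 668 CPM in DE and 10.9 and 6.50 CPM in GFP+ sBC, the same order as in RNA. TAGLN rose in DE over hPSC by 3.52 ± 0.34 (edgeR adjusted p = 0.00112). CDH1 fell by 2.03 ± 0.22 in DE (edgeR adjusted p = 0.00167). SNAI1 rose by 2.39 ± 0.60 (edgeR adjusted p = 0.0289) and ZEB2 fell by 3.49 ± 0.69 (edgeR adjusted p = 0.0135), but SNAI1 lost its call in 4 and ZEB2 in 2 of the 6 fits that left out a library. EPCAM showed 66.6 and 76.4 CPM in DE against 77.3 and 69.5 CPM in hPSC, overlapping ranges, with a log2 difference of -0.04 ± 0.21 (edgeR adjusted p = 0.928) whose sign changes with the scaling. VIM, ACTA2 and PDGFRA differed by 0.55 ± 0.22, 0.82 ± 0.39 and -1.43 ± 0.70 (edgeR adjusted p = 0.12, 0.17 and 0.183), and VIM passed with DESeq2 (adjusted p = 0.0332) and with protein-coding genes alone (edgeR adjusted p = 0.0457).

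**Figure D4:**
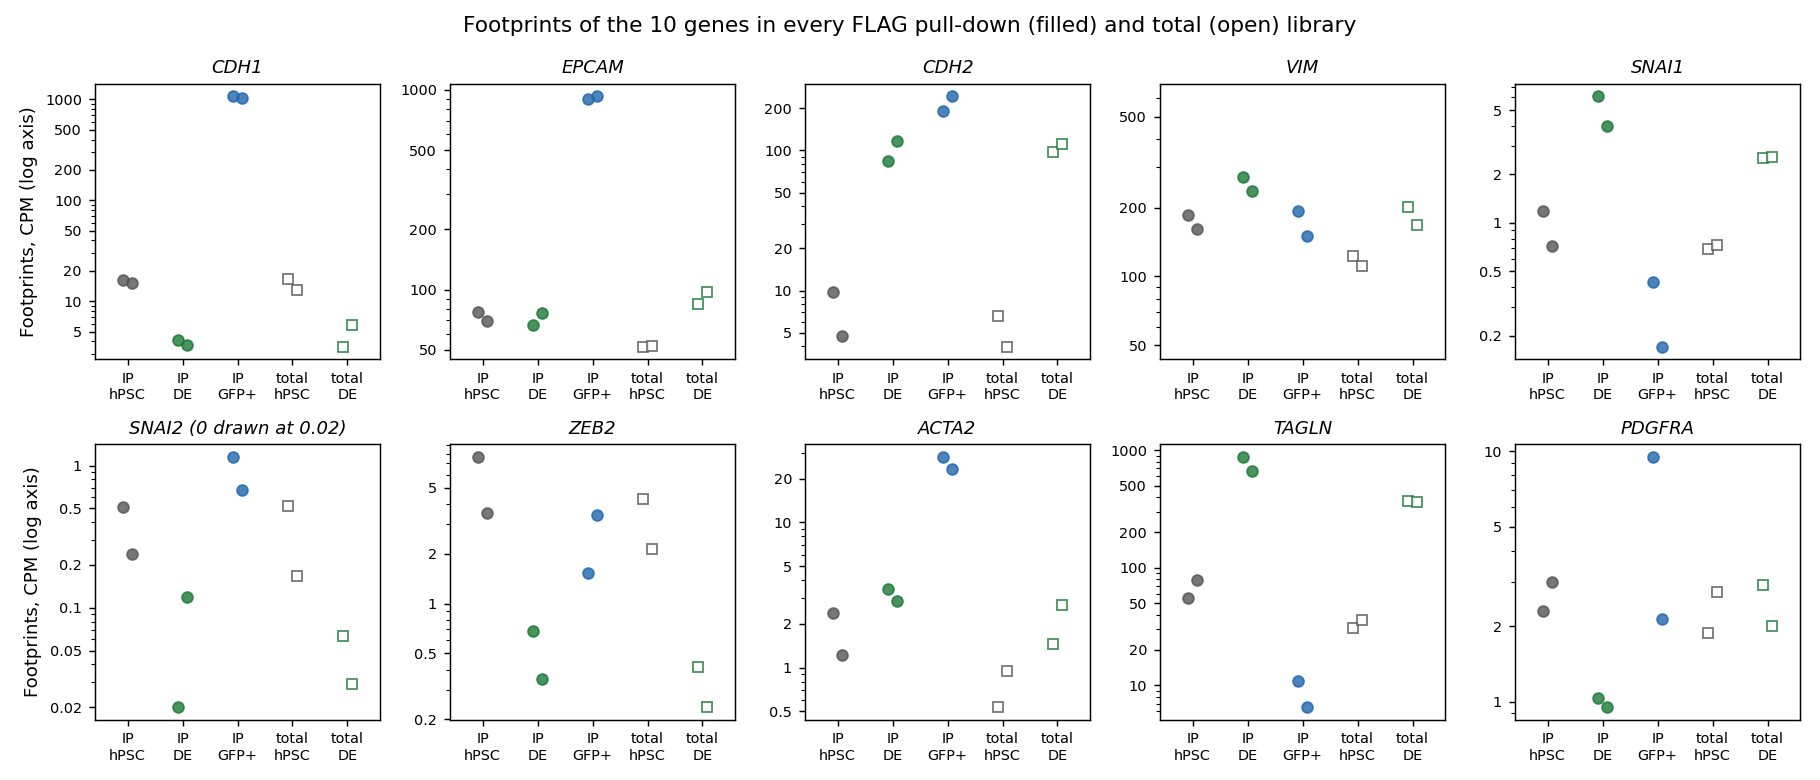
Footprint levels of the 10 genes in CPM on a log axis, 1 point per library, with filled circles for FLAG pull-down (IP) of hPSC, DE and GFP+ sBC and open squares for total footprints of hPSC and DE, and the 0 of SNAI2 in 1 DE library drawn at the bottom of its panel. CDH1 and EPCAM footprints of GFP+ sBC lie between 898 and 1078 CPM, far above the other stages.

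SNAI2 was too low to be tested within footprints in the main fits. It had 9 and 5 counts in hPSC, 0 and 3 in DE and 8 and 5 in GFP+ sBC FLAG footprints, and 1 and 1 in DE against 14 and 5 in hPSC total footprints. Its RNA was highest in GFP+ sBC and lowest in DE. Scaled for depth, SNAI2 FLAG footprints had the same order, with 1.15 and 0.678 CPM in GFP+ sBC. They stood at 0.508 and 0.241 CPM in hPSC and at 0 and 0.119 CPM in DE. With protein-coding genes alone, all 10 members were tested between GFP+ sBC and DE. All 10 passed there, beside 8307 of 13640 genes. These SNAI2 values rest on the few counts above. SNAI1 in GFP+ sBC was as shallow, with 3 and 1 counts.

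FLAG pull-down was also set against total footprints of the same stage. None of 9 tested members passed for pull-down over total in hPSC, beside 1.15% of all genes, and none in DE, beside 0.863%. At an unadjusted p under 0.05 there was 1 member in hPSC (TAGLN) and 3 in DE (EPCAM, PDGFRA and TAGLN). The share of all genes at that threshold is not given here, so these counts have no background. DESeq2 called no member in hPSC, where it called 735 of 16679 genes. In DE it called 2 members (EPCAM and TAGLN) and 1035 of 16679 genes. The difference of the pull-down effect between DE and hPSC passed in none, beside 0.0120% of all genes. At an unadjusted p under 0.05 there were 2 members, again without a background, and DESeq2 called no member and 58 of 16679 genes.

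In FLAG footprints of GFP+ sBC relative to hPSC, 4 members rose and 1 fell of 9 tested, beside 58.9% of all genes (30.4% higher and 28.5% lower). CDH1 had 1078 and 1028 CPM in GFP+ sBC against 16.4 and 15.2 CPM in hPSC (log2 fold change 6.06 ± 0.25, edgeR adjusted p = 1.56e-05). EPCAM had 898 and 930 CPM in GFP+ sBC against 77.3 and 69.5 CPM in hPSC (3.64 ± 0.23, edgeR adjusted p = 2.59e-05). CDH2 rose by 4.91 ± 0.42 (edgeR adjusted p = 7.81e-05). These adhesion genes were separate between the stages by a wide margin. ACTA2 had 28.3 and 23.2 CPM in GFP+ sBC against 2.37 and 1.22 CPM in hPSC (3.85 ± 0.41, edgeR adjusted p = 0.000184). TAGLN fell by 2.95 ± 0.34 (edgeR adjusted p = 0.000287). The differences of VIM (-0.02 ± 0.22), SNAI1 (-1.73 ± 0.75), ZEB2 (-1.16 ± 0.62) and PDGFRA (1.12 ± 0.67) did not pass (edgeR adjusted p = 0.961, 0.0836, 0.14 and 0.183), though PDGFRA did without GFP+ replicate 2 (1.80, edgeR adjusted p = 0.022). Against DE, 6 members were higher in GFP+ sBC FLAG footprints and 2 lower, beside 52.6% of all genes (27.8% higher and 24.8% lower). CDH1 was higher by 8.09 ± 0.28 (edgeR adjusted p = 1.89e-05) and TAGLN fell by 6.47 ± 0.40 (edgeR adjusted p = 2.95e-05). EPCAM and ACTA2 were higher by 3.68 ± 0.23 and 3.03 ± 0.39 (edgeR adjusted p = 3.09e-05 and 0.000602), and SNAI1 fell by 4.12 ± 0.74 (edgeR adjusted p = 0.00278). CDH2 (1.12 ± 0.36), ZEB2 (2.33 ± 0.70) and PDGFRA (2.55 ± 0.72) were higher as well (edgeR adjusted p = 0.0327, 0.0261 and 0.0201), but each lost its call in 3 or 4 of the 6 fits that left out a library, and VIM differed by -0.56 ± 0.22 (edgeR adjusted p = 0.0683), passing with DESeq2 (adjusted p = 0.0424) and with protein-coding genes alone (edgeR adjusted p = 0.0433).

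ACTA2 footprints carry a limit of their own. Actin genes are nearly identical in coding sequence, and short footprints can be assigned to the wrong one. The smooth muscle gamma-actin ACTG2, at 0 and 0 CPM in GFP+ sBC RNA, had 53.6 and 36.2 CPM in GFP+ sBC FLAG footprints, and in DE it had 225 and 169 CPM in FLAG footprints against 1.15 and 1.24 CPM in RNA. Whether ACTA2 footprints hold reads of ACTB or ACTG1 in the same way was not tested, and ACTA2 footprint values are uncertain for this reason. In the annotation TAGLN overlaps PCSK7, VIM overlaps VIM-AS1, ZEB2 overlaps ZEB2-AS1, CDH2 overlaps CDH2-AS1, and ACTA2 overlaps both ACTA2-AS1 and the death receptor gene FAS, and strand use in counting is not given in the sources used here. VIM-AS1 had at most 2.42 CPM in any RNA library, ACTA2-AS1 at most 0.127 CPM and ZEB2-AS1 at most 0.0230 CPM. FAS RNA stood at 0.824 and 1.03 CPM in hPSC, 0.759 and 0.903 CPM in DE, 7.23 and 9.48 CPM in GFP+ sBC and 9.25 and 12.8 CPM in GFP- sBC. Like ACTA2, it stood higher in both sBC fractions than in hPSC and DE, and whether the 2 genes share reads was not tested. PCSK7 ran from 35.3 to 81.1 CPM in RNA, and whether it shares reads with TAGLN was not tested.

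The change of footprints relative to RNA, often called translational efficiency, was fitted as the interaction of assay and stage. In GFP+ sBC the footprint cells received the tag by lentivirus, while the labels of the RNA cells carry no tag. Assay and tag delivery therefore cannot be told apart in the sBC values. Between DE and hPSC no member passed, with FLAG footprints (background 0.167%) or with total footprints (background 0.314%). At an unadjusted p under 0.05, for which no background is given, there was 1 member each (EPCAM and SNAI1). DESeq2 called 1 member and 752 of 22210 genes with FLAG footprints, and 0 members and 1434 of 21681 genes with total footprints. Between GFP+ sBC and hPSC, 4 of 10 members had more footprints relative to RNA in GFP+ sBC and none had fewer, beside a background of 15.0% in either direction, 11.0% higher and 3.98% lower. The adhesion genes made up 3 of the 4: CDH1 at 1.94 ± 0.29 (edgeR adjusted p = 0.00152), CDH2 at 1.79 ± 0.42 (edgeR adjusted p = 0.016) and EPCAM at 1.17 ± 0.19 (edgeR adjusted p = 0.00267), all log2 differences. CDH2 lost its call in 5 of the 12 fits that left out a library. With GFP- RNA in place of GFP+ RNA these values were 1.99, 2.46 and 1.31 (edgeR adjusted p = 0.00465, 0.0224 and 0.0272).

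PDGFRA had the largest difference, 4.89 ± 0.74 on the log2 scale (edgeR adjusted p = 0.00166), and 3.62 with GFP- RNA (edgeR adjusted p = 0.0217). It rests on 66 and 16 counts in the GFP+ sBC footprints, 9.49 and 2.13 CPM, and its 2 libraries differ more than those of any other stage. ACTA2 fell just short at 1.51 ± 0.46 (edgeR adjusted p = 0.0519). It passed with the stricter filter (edgeR adjusted p = 0.0442), DESeq2 (adjusted p = 0.024), protein-coding genes alone (edgeR adjusted p = 0.0258) and without hPSC FLAG replicate 1 (edgeR adjusted p = 0.0403), but with GFP- RNA its sign was reversed, at -0.82 (edgeR adjusted p = 0.378). VIM, SNAI1, ZEB2 and TAGLN, which also missed the threshold at 0.52 ± 0.23, 1.53 ± 0.94, 0.77 ± 0.81 and 0.33 ± 0.49 (edgeR adjusted p = 0.164, 0.333, 0.625 and 0.769), turned negative with GFP- RNA as well. SNAI2 differed by -2.15 ± 0.88 (edgeR adjusted p = 0.133), and by -0.25 with GFP- RNA.

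Genes of other cell types stood higher in the same comparison, where 11.0% of all genes tested were higher. Of the duct and progenitor markers 3 of 4 passed as higher: CFTR at 6.39 ± 0.75, SPP1 at 4.75 ± 0.58 and SOX9 at 4.08 ± 0.57 (edgeR adjusted p = 0.000466, 0.000635 and 0.00108). Of the mesenchyme and smooth muscle list 9 of 18 tested were higher, such as FN1 at 3.71 ± 0.32 and SPARC at 3.47 ± 0.45 (edgeR adjusted p = 0.000107 and 0.000737), and of the junction and keratin list 5 of 15, such as CLDN6 at 4.69 ± 0.38 (edgeR adjusted p = 0.000101). With GFP- RNA in place of GFP+ RNA, where 5.42% of all genes were higher, none of the 4 duct and progenitor markers passed, with CFTR at 0.32 ± 1.13, SPP1 at -0.52 ± 0.49 and SOX9 at -0.17 ± 0.57 (edgeR adjusted p = 0.994, 0.617 and 0.982). In that setting 1 mesenchyme and smooth muscle gene was higher, FN1 at 1.55 ± 0.34 (edgeR adjusted p = 0.0243). Another was lower, beside 1.61% of all genes: CNN1 at -8.63 ± 2.08 (edgeR adjusted p = 0.0375), whose GFP+ sBC footprints were at 0. SPARC at -1.10 ± 0.35 and CLDN6 at 0.80 ± 0.40 did not pass (edgeR adjusted p = 0.0882 and 0.278). The mesenchyme markers summed to 37.6 and 20.9 CPM in GFP+ sBC FLAG footprints with TCF21 at 0, and the endothelial markers to 23.3 and 157 CPM. The part of such cells in the values of CDH1, CDH2, EPCAM, PDGFRA and ACTA2 was not tested.

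**Figure D5:**
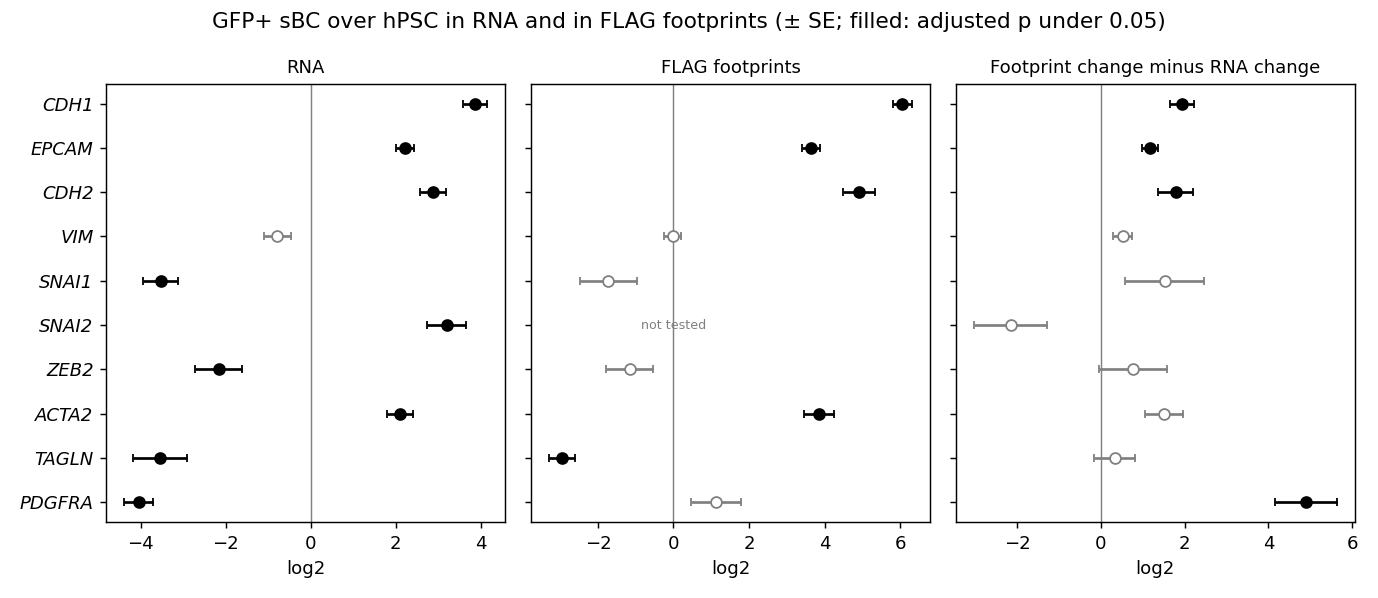
Log2 fold changes of GFP+ sBC over hPSC in RNA and in FLAG footprints, and the footprint change minus the RNA change, for the 10 genes with standard errors. Filled points have an adjusted p under 0.05, as for CDH1, EPCAM, CDH2 and PDGFRA in the last panel.

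The genes whose pattern was most like that of a member were sought among 8467 genes, with the mean of each assay subtracted from log2 CPM over the 18 libraries. These correlations are descriptions over libraries that share stage, line and preparation. For CDH1 they were SCPEP1, CRISPLD1 and CLU (Pearson r = 0.994, 0.990 and 0.989) and for EPCAM HEXA and SEL1L (0.993 and 0.993). For TAGLN they were the cytoskeletal linker TLN2, SH3BP4 and the actin-capping protein CAPG (0.989, 0.985 and 0.982). VIM gave AATF, BAG3 and COL1A1 (0.941, 0.938 and 0.926), and PDGFRA gave CRTAP and SLC16A1 (0.919 and 0.909). Among the members themselves, SNAI1 and TAGLN were the closest pair (0.943), and SNAI2 and TAGLN were the most opposed (-0.928). Both values carry low counts: SNAI2 had from 0 to 14 counts in footprint libraries, and SNAI1 had 3 and 1 in those of GFP+ sBC.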

How the data were processed

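The authors deposited 1 table of estimated counts (expected counts) per gene and library, and between 16.8% and 31.3% of a library's values (zeros included) are not whole. The submitters' processing notes name Bowtie, cutadapt, UMI-tools, Salmon and DESeq2 and the build GRCh38, without versions or roles. Per the labels' protocols, RNA was depleted of ribosomal RNA with RNase H and footprints were made with RNase I without cycloheximide. Identifiers were matched to symbols (57030 of 57808). Upstream windows, miRNAs and gene spans are those of RefSeq.

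Counts were rounded and tested by edgeR 4.0.16 (R 4.3.3), using its robust quasi-likelihood test after TMM scaling and filterByExpr (Benjamini-Hochberg over all genes tested, adjusted p under 0.05), in 15 comparisons. The standard error is the log2 fold change divided by the root of F. The sort, DE against hPSC in RNA and total footprints were fitted on 4 libraries each, the other RNA comparisons on 8, FLAG footprints on 6, pull-down against total on 8, and footprints relative to RNA on 12 or 8. The members and lists were chosen with earlier results of these data known. Named were all members, up to 3 genes per list and comparison by size of change (mean log2 CPM of at least 1), ZEB1, TWIST1, GRHL2, ESRP1, FN1, MYOCD and SRF, and the 3 genes most like 5 members, of which 1 each for EPCAM and PDGFRA is not reported here. Cell type markers were named as lists. The fit was tested on simulated data. Alternatives were RLE size factors, no filter, a filter at 10 counts and 1 CPM in 2 libraries, DESeq2 1.42.0, a replicate block, other sets of libraries, protein-coding nuclear genes alone, and each library left out. Figures were drawn with matplotlib 3.10.9.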

Additional observations from a re-analysis of the deposited data

Results flagged for a closer look

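In 4 of the 10 genes, the difference between GFP+ sBC and hPSC was not the same in FLAG footprints as in RNA, by the test of the difference itself (edgeR quasi-likelihood test of the interaction). Over all genes tested, 15.0% passed this test and 11.0% were higher. CDH1 footprints changed by 1.94 ± 0.29 more than its RNA on the log2 scale (edgeR adjusted p = 0.00152). The value for CDH2 was 1.79 ± 0.42 (edgeR adjusted p = 0.016), and its call was lost in 5 of the 12 fits that left out a library. EPCAM stood at 1.17 ± 0.19 (edgeR adjusted p = 0.00267). For PDGFRA the difference was 4.89 ± 0.74 (edgeR adjusted p = 0.00166), with 66 and 16 counts in the GFP+ footprint libraries. With GFP- RNA in place of GFP+ RNA, the values were 1.99, 2.46, 1.31 and 3.62 in the same order (edgeR adjusted p = 0.00465, 0.0224, 0.0272 and 0.0217). The GFP+ footprint libraries hold duct and progenitor markers near the GFP- RNA level, and the part of this in the 4 values was not tested. The sBC used for footprints also received RPL22-FLAG by lentivirus, while the sBC RNA labels carry no tag. Assay and tag delivery cannot be told apart in these values.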

How the results depend on the processing

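Of the members' changes, CDH1, CDH2 and TAGLN between DE and hPSC in RNA and FLAG footprints, and CDH1 and EPCAM between GFP+ sBC and hPSC in RNA and FLAG footprints, kept their direction and their call with each library left out. The sort gave 481 genes and 1 member, against 1596 and 4 with no filter, 1263 and 4 with DESeq2, 1263 and 3 when the 8 RNA libraries were fitted together, and from 384 to 7815 and from 0 to 7 with 1 library left out. DE against hPSC in RNA gave 15591 genes, against 6561 in that joint fit.

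Same-numbered libraries shared little deviation (correlations from -0.107 to 0.123, and 0.092 for the sort fractions). With 2 libraries per group this cannot exclude that libraries are paired, as the sort fractions may be. The main fits are unpaired, and the replicate block gave 1258 genes and 4 members in the sort. It gave 9 genes for FLAG footprints relative to RNA in DE and 0 for total footprints relative to RNA in DE. Pull-down over total in hPSC gave 67 with the block, and the difference of that effect between DE and hPSC gave 6. With the block VIM in GFP- sBC against hPSC was -0.017, VIM in total footprints of DE lost its call (edgeR adjusted p = 0.0822), SNAI1, SNAI2 and TAGLN gained one in the sort, and ZEB2 gained one in GFP+ sBC against DE (edgeR adjusted p = 0.0259) and in GFP- sBC against hPSC (edgeR adjusted p = 0.0393). Crossed numbers, tried after seeing the data, gave 3642 genes for FLAG footprints of DE against hPSC (3573 without) and 239 for pull-down over total in hPSC (192 without).

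Footprints relative to RNA in DE against hPSC gave 37 genes with FLAG, against 69 with no filter, 752 with DESeq2 (and 1 member), 17 with protein-coding genes alone and from 1 to 1730 (members from 0 to 1) with 1 library left out. With total footprints the 68 genes became 44 with RLE factors, 191 with no filter, 1434 with DESeq2, 186 with protein-coding genes and from 0 to 3906. In GFP+ sBC the 3327 genes (2443 higher, 884 lower) became 5214 with DESeq2 (2950 and 2264), 1545 with GFP- RNA, and from 1748 to 5019, and the split was 2179 to 1305 with RLE factors and 1915 to 1191 with no filter. Pull-down over total in hPSC gave 192 genes, against 958 with no filter, 735 with DESeq2, 82 with protein-coding genes and from 18 to 239. In DE it gave 144, against 1526 and 1 member with no filter, 1035 and 2 members with DESeq2, 52 with protein-coding genes and from 36 to 332. The difference between them gave 2, against 214, 58 and 0 in that order of settings, and from 0 to 11.

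With 1 library left out, FLAG footprints of DE against hPSC gave from 1097 to 3144 genes and from 3 to 5 members, those of GFP+ sBC against DE from 5 to 8 members, total footprints of DE against hPSC from 73 to 5782 genes and from 0 to 7 members, and GFP- sBC against hPSC in RNA from 5 to 10 members.

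Signs reversed only in values that had not passed. In the sort CDH1 was 0.006 with protein-coding genes. EPCAM in FLAG footprints of DE against hPSC was 0.024 with RLE factors, 0.027 with DESeq2, 0.076 with protein-coding genes and 0.082 in the fit of 4 libraries, and VIM in those of GFP+ sBC against hPSC was 0.081 with RLE factors, 0.028 with the stricter filter, 0.081 with DESeq2 and 0.078 with protein-coding genes. With GFP- RNA in place of GFP+ RNA, footprints relative to RNA were -0.195 for VIM, -1.185 for SNAI1, -0.146 for ZEB2, -0.821 for ACTA2 and -2.551 for TAGLN. With 1 library left out, signs changed within -0.41 to 0.254 for CDH1 and -0.17 to 0.291 for EPCAM in the sort, -0.013 to 0.573 for PDGFRA in DE RNA, -0.487 to 0.47 for VIM and -1.673 to 0.121 for TAGLN in GFP- sBC RNA, -0.157 to 0.112 for EPCAM in DE FLAG footprints, -0.321 to 1.802 for PDGFRA and -0.224 to 0.133 for VIM in GFP+ sBC FLAG footprints, -0.19 to 0.374 for PDGFRA in DE total footprints, and -0.31 to 0.92 for TAGLN and -0.158 to 1.236 for ZEB2 in GFP+ sBC footprints relative to RNA. The median of all genes for GFP+ sBC against hPSC in FLAG footprints was -0.011, 0.08 with RLE factors or DESeq2, and 0.145 with protein-coding genes, which changes the genes tested as well as the scaling. For footprints relative to RNA in GFP+ sBC it was 0.069, -0.061 with RLE factors, -0.041 with DESeq2 and 0.186 with protein-coding genes, and for FLAG footprints relative to RNA in DE it was 0.164, -0.055, -0.028 and -0.069 in that order. The causes were not tested. Depth limits SNAI2 and SNAI1 footprints most, at 0 to 14 counts and, in GFP+ sBC, 1 and 3 counts.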
